A study of Mus musculus with 23 samples.

Results

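Feedback regulators and targets of WNT signaling, namely Axin2, Rnf43, Znrf3, Nkd1, Notum, Lef1, Tcf7, Sp5, Myc and Ccnd1, were followed through every RNA-seq and Ribo-seq group of a study of mouse intestinal organoids and mice. They were listed by name, without a rule on their values, but with earlier results of these data known. They make up 10 of the 22350 protein-coding genes counted in RNA-seq. All 10 are also in the Ribo-seq files of organoids and of mice. The study asked how loss of Raptor, the product of Rptor and a scaffold of the growth-controlling kinase complex mTORC1, alters intestinal stem cells.

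All samples were C57BL/6, and the age given for the animals was 8 to 12 weeks. Organoids are epithelial cultures grown from intestinal crypts. In RNA-seq, the wild type (WT) organoids carried VillinCre.ERT2 and RPL22.HA (2 lines, 2 technical libraries each), the Rptor fl/fl organoids carried VillinCre.ERT2 and Rptor.fl/fl without RPL22.HA in their label (2 lines, 2 technical libraries each), and the stem cell enriched (SCe) organoids had the WT genotype but were grown in 10 µM CHIR99021 and 1.5 mM valproic acid (3 libraries). CHIR99021 inhibits GSK3, the kinase that marks β-catenin for destruction, and valproic acid inhibits histone deacetylases. In Ribo-seq, organoids labelled VillinCre.ERT2.Rptor.fl/fl.RPL22.HA (3 libraries) were set against SCe organoids of genotype VillinCre.ERT2.RPL22.HA (3 libraries). The mice carried Lgr5Cre.ERT2 and RPL22.HA, called WT here (3 libraries), or these alleles and Rptor.fl/fl (3 libraries). The WT controls therefore carried Cre as well as the HA-tagged ribosomal protein, while in RNA-seq the RPL22.HA allele and the Rptor genotype changed together and cannot be told apart. The labels call the WT and Rptor fl/fl samples untreated, whereas the study's methods describe recombination with tamoxifen, with mice collected after 24 h. The Villin promoter acts throughout the intestinal epithelium and the Lgr5 promoter in crypt base stem cells. For the mice, pieces of whole small intestine were lysed and HA-tagged ribosomes were pulled down.

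WNT ligands at the cell surface stop the destruction complex from degrading β-catenin, which then enters the nucleus and activates genes together with TCF/LEF factors. In intestinal crypts this activity maintains stem cells and is limited by products of the genes it turns on. Axin2 is a scaffold of the destruction complex, Rnf43 and Znrf3 are ubiquitin ligases that remove Frizzled receptors, Nkd1 binds Dishevelled, and Notum is a secreted enzyme that removes the lipid from WNT ligands. Lef1 and Tcf7 encode TCF/LEF factors, Sp5 a zinc finger repressor, Myc a growth-promoting transcription factor and Ccnd1 cyclin D1, which drives entry into S phase.

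On mm10, Axin2 lies at chr11:108920349-108950783, Rnf43 at chr11:87662722-87735539 and Znrf3 at chr11:5276324-5444847. Nkd1 is at chr8:88521354-88594884 and Notum at chr11:120653788-120661175. Lef1 is at chr3:131110471-131224356, Tcf7 at chr11:52252371-52283014, Sp5 at chr2:70474923-70477729, Myc at chr15:61985391-61990374 and Ccnd1 at chr7:144929931-144939925. Znrf3, Notum, Tcf7 and Ccnd1 are on the minus strand and the rest on the plus strand.

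RefSeq promoter windows on GRCm38.p6, from 250 bases before to 50 bases after a start site, were present for 6 of the 10 genes (Axin2, Rnf43, Nkd1, Lef1, Tcf7 and Sp5, 11 windows in all). They were searched on both strands for 4 TCF/LEF words, namely CTTTGAT and the variants of it that end in AA, in TT or in TA in place of its last letters. Sp5 and Lef1 held them. They are shown because Sp5 and Lef1 are discussed below and because these words belong to the factors that Lef1 and Tcf7 encode. In the plus-strand sequences that follow, capitals mark the word or its reverse complement.
Sp5, chr2:70474808-70474837, word starting 104 bases before the start site: ggcaaggccccCTTTGATcaggaaaatcca
Sp5, chr2:70474690-70474719, word starting 222 bases before the start site: ttcctagagatAACAAAGacactttgtcac
Lef1, chr3:131156136-131156165, word starting 147 bases before an internal start site: caacctcagaaTACAAAGtaggattgcatt
The other 3 Lef1 windows and those of Axin2, Rnf43, Nkd1 and Tcf7 did not contain these letters. Of all 32851 promoter windows, 16.9% held at least 1 such word, against 2 of the 11 windows of the 10 genes, so the words were about as frequent here as elsewhere. Binding was not measured.

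Between 23802944 and 67598878 estimated reads were assigned per RNA-seq library, 1106178 to 8257457 per Ribo-seq library of organoids and 772077 to 8238388 per Ribo-seq library of mice. Levels are given as CPM (counts relative to library size, scaled by TMM within an assay), and technical libraries of a line were summed. The study describes the mice, and the WT and Rptor fl/fl lines of RNA-seq, as biological replicates. For the SCe libraries and the organoid Ribo-seq, the sources used here do not say whether replicates came from separate animals or cultures, so their p-values may measure technical spread alone. Rptor itself stood at 51.4 and 47.8 CPM in WT lines, 14.9 and 15.4 in Rptor fl/fl lines and 53.6 to 60.6 in SCe libraries. In Ribo-seq the separation was weaker. Rptor footprints were 16.2 to 19.0 CPM in organoid libraries labelled Rptor fl/fl and 14.7 to 41.4 in SCe libraries (adjusted p = 0.318, edgeR). In mice they were 32.5 to 37.2 CPM against 39.3 to 44.9 in WT (adjusted p = 0.150, edgeR). All 7 epithelial markers, among them Epcam and Cdh1, were present in every organoid line or library, at 7870 to 8536 CPM in sum in WT and Rptor fl/fl RNA-seq and 4323 to 4773 CPM in SCe, while 6 smooth muscle, 6 stromal and 7 immune markers summed to at most 6.23 CPM each in RNA-seq of organoids. The first SCe RNA-seq library stood apart: its Pearson r with the other 2 SCe libraries across 15158 genes was 0.939 for each, against 0.987 between those 2. Its 7 enterocyte markers summed to 244 CPM, against 6088 and 7083 in the others, and results that rest on it are given with and without it.

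Compared per unit of transcript length, with the authors' TPM, Myc (mean 77.7 TPM ± 11.0, SD, n = 2 lines), Axin2 (69.7 ± 3.60) and Ccnd1 (63.2 ± 10.1) were the most abundant of the 10 mRNAs in WT organoids, and their lines overlapped. Rnf43 followed at 35.0 TPM. Tcf7, Znrf3, Sp5 and Nkd1 lay between 8.38 and 3.18 TPM, and Notum (0.143 TPM) and Lef1 (0.0555 TPM) were near the limit of detection. In Rptor fl/fl organoids Myc (140.0 ± 33.0 TPM) and Ccnd1 (131 ± 47.6) again led, but Axin2 (34.7 ± 3.74) came after Rnf43 (41.4 ± 4.87), with ranges that did not overlap. By mean TPM, the order in SCe organoids began with Myc, Axin2 and Ccnd1 as in WT, and Nkd1 (26.5 TPM) stood above Tcf7, Znrf3 and Sp5. Axin2 (45.3 to 139.6 TPM) and Ccnd1 (46.0 to 90.4 TPM) overlapped. The place of Axin2 before Ccnd1 rests on the first SCe library, where Axin2 was at 317 CPM against 140.0 and 130 CPM in the others. Nkd1 ran from 8.78 to 60.9 TPM over its 3 libraries, and its mean leans on the first, at 81.2 CPM against 15.8 and 16.6 CPM. Without that library Nkd1 lay below Tcf7 (16.5 to 22.3 TPM) and Znrf3 (10.0 to 20.8 TPM).

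**Figure D1:**
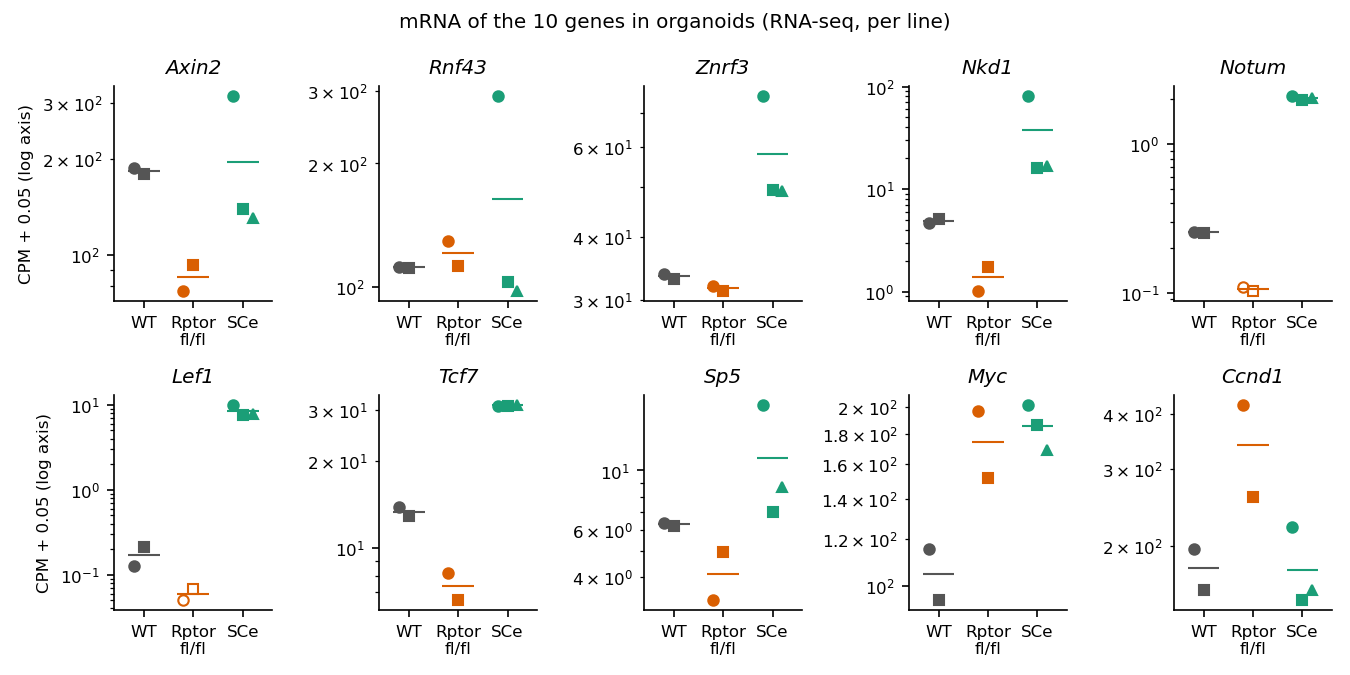
mRNA level of each gene in RNA-seq of organoids, as CPM plus 0.05 on a log axis whose range differs between panels. Each symbol is an organoid line or library (circle, square and triangle for replicates 1, 2 and 3), bars are group means and open symbols hold at most 3 counts. Lef1 and Notum are highest in all 3 SCe libraries, and the first SCe library lies well above the others for Axin2, Rnf43, Nkd1 and Sp5.

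The first comparison asked how these genes stood in the SCe medium, with its CHIR99021 and valproic acid. These compounds were given together, so their effects cannot be told apart. Lef1, Notum, Tcf7, Myc and Znrf3 were higher in SCe than in WT organoids, while Axin2, the gene most often used as a readout of WNT activity, was not. At an adjusted p under 0.05 (edgeR quasi-likelihood test, Benjamini-Hochberg over all genes), 5 of the 10 genes were called higher and 0 lower (6 and 0 at an unadjusted p under 0.05). Of the 14925 genes tested, 22.4% were called higher and 19.9% lower. The median log2 fold change was 0.84 over the 10 genes and 0.02 over all genes.

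Lef1 showed the largest difference. Its counts were 4 and 8 in WT lines (0.0755 and 0.161 CPM) and 299, 475 and 457 in SCe libraries (9.97, 7.49 and 7.85 CPM). WT organoids were thus close to 0, and the ratio of SCe to WT was 69.5, with an exact 95% interval from summed counts of 39.6 to 135. Lef1 passed the count filter through the SCe libraries, so that its call is no independent support, and 4 of the other 9 genes were called. Tcf7, the other TCF/LEF gene of the list, stood at 13.7 and 12.8 CPM in WT lines and at 31.0, 31.0 and 31.2 CPM in SCe libraries. The SCe libraries hardly differed from each other, and the log2 fold change was 1.24 (SE 0.0771, adjusted p = 0.00127, edgeR). Myc rose from 115 and 94.6 CPM to 201, 187 and 169 CPM (log2 fold change 0.84, SE 0.125, adjusted p = 0.00676, edgeR). Sp5 was at 6.34 and 6.18 CPM in WT and at 17.5, 6.97 and 8.63 CPM in SCe, which did not pass the test (log2 fold change 0.83, adjusted p = 0.181, edgeR).

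Among the feedback inhibitors, Notum was at 0.208 and 0.201 CPM in WT lines and at 2.07, 1.92 and 2.01 CPM in SCe libraries (log2 fold change 3.29, SE 0.273, adjusted p = 0.00192, edgeR). Znrf3 went from 33.7 and 32.9 CPM to 75.7, 49.4 and 49.1 CPM (log2 fold change 0.82, SE 0.223, adjusted p = 0.0373, edgeR). Nkd1 was at 4.64 and 5.05 CPM in WT and at 81.2, 15.8 and 16.6 CPM in SCe. Every SCe library was above both WT lines, but the spread left the adjusted p at 0.0532 (edgeR, log2 fold change 2.98, SE 0.923).

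Axin2 was at 187 and 180 CPM in WT lines and at 317, 140.0 and 130 CPM in SCe libraries. The first SCe library was above WT and the other 2 were below it, so that the fitted log2 fold change was 0.11 with a 95% interval from -0.99 to 1.20 (adjusted p = 0.859, edgeR). Rnf43 had the same pattern, with 112 and 111 CPM in WT and 292, 103 and 97.6 CPM in SCe (log2 fold change 0.57, adjusted p = 0.433, edgeR). Ccnd1 overlapped between the groups, at 196 and 159 CPM in WT and 221, 150.2 and 159 CPM in SCe (log2 fold change 0.01, 95% interval -0.51 to 0.53, adjusted p = 0.974, edgeR).

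Without the first SCe library, 8 genes were called, 6 higher and 2 lower. Axin2 was then lower in SCe than in WT (log2 fold change -0.43, SE 0.0540, adjusted p = 0.00156, edgeR), as was Rnf43 (log2 fold change -0.14, SE 0.0482, adjusted p = 0.0447, edgeR). Nkd1 was then called higher (log2 fold change 1.76, adjusted p = 0.000224, edgeR), and Lef1, Notum, Tcf7, Myc and Znrf3 kept their calls. Without the second WT line Lef1, Notum and Tcf7 were the 3 genes called. Znrf3 also lost its call without the first WT line and without the second or the third SCe library (adjusted p from 0.0511 to 0.168, edgeR). The 4 stem cell markers Lgr5, Olfm4, Ascl2 and Smoc2 summed to 3369 and 4934 CPM in WT lines and to 694 to 1284 CPM in SCe libraries. Of these 4, 2 were called lower and 0 higher (2 and 1 at an unadjusted p under 0.05, edgeR), and Lgr5 was above WT in each SCe library, at 336, 223 and 219 CPM against 215 and 197 CPM. The 6 goblet markers summed to 1627 and 1718 CPM in WT and 234 to 462 CPM in SCe, the 6 enteroendocrine markers to 199 and 298 CPM in WT and 1.37 to 25.7 CPM in SCe, and the 7 epithelial markers to 7870 and 8229 CPM in WT and 4323 to 4773 CPM in SCe (4 of 7 called lower). The part of these markers in the result was not tested. In these bulk samples, fewer cells of a type and less RNA per cell cannot be told apart.

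The second comparison asked how these genes stood in Rptor fl/fl organoids in the same ENR medium as WT, without CHIR99021 and valproic acid. Axin2, Nkd1 and Tcf7 were lower in Rptor fl/fl than in WT organoids and Myc was higher. Lef1 did not pass the count filter, so 9 genes were tested, of which 1 was called higher and 3 lower. Of the 14131 genes tested, 11.6% were called higher and 11.0% lower. This comparison shares its WT lines with the first.

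Axin2 was at 187 and 180 CPM in WT lines and at 77.0 and 93.3 CPM in Rptor fl/fl lines. Both Rptor fl/fl lines were below both WT lines, with a log2 fold change of -1.11 (SE 0.111, adjusted p = 0.0109, edgeR), and the call held whichever line was left out. It was lost when all RNA-seq groups shared 1 fit (adjusted p = 0.161, edgeR). Nkd1 was at 4.64 and 5.05 CPM against 0.957 and 1.70 CPM (log2 fold change -1.86, SE 0.317, adjusted p = 0.0233, edgeR). Tcf7 was at 13.7 and 12.8 CPM against 8.10 and 6.52 CPM (log2 fold change -0.87, SE 0.137, adjusted p = 0.0205, edgeR). The calls on Nkd1 and Tcf7 were lost without either WT line, with adjusted p from 0.0573 to 0.0748 (edgeR).

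The receptor-removing ligases did not move with Axin2. Rnf43 was at 112 and 111 CPM in WT and at 129 and 112 CPM in Rptor fl/fl lines (log2 fold change 0.11, 95% interval -0.10 to 0.31). Znrf3 was at 33.7 and 32.9 CPM against 31.9 and 31.2 CPM (log2 fold change -0.08, 95% interval -0.27 to 0.10). Adjusted p was 0.359 and 0.429 (edgeR), and for both genes the interval leaves out a fall as large as that of Axin2.

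Lef1 and Notum were scarce in both genotypes. Lef1 had 4 and 8 counts in WT lines and 0 and 1 in Rptor fl/fl lines, a ratio of 12.7 between WT and Rptor fl/fl with a 95% interval of 1.88 to 543. Notum had 11 and 10 counts in WT and 3 and 3 in Rptor fl/fl, a ratio of 3.70 with an interval of 1.45 to 11.2 (adjusted p = 0.0681, edgeR). Such intervals are exact, from summed counts, and cover counting error only. Sp5 was at 6.34 and 6.18 CPM in WT against 3.24 and 4.90 CPM, below WT in both lines but not past the test (log2 fold change -0.62, adjusted p = 0.124, edgeR).

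Myc and Ccnd1 lay on the other side. Myc was at 115 and 94.6 CPM in WT and at 196 and 152 CPM in Rptor fl/fl lines (log2 fold change 0.73, SE 0.155, adjusted p = 0.0354, edgeR). The call on Myc was lost without the second WT line (adjusted p = 0.106) or the first Rptor fl/fl line (adjusted p = 0.0807, edgeR). Ccnd1 was at 196 and 159 CPM in WT and at 420 and 258 CPM in Rptor fl/fl. Both Rptor fl/fl lines were above WT but differed from each other, and the test was just missed (log2 fold change 0.93, SE 0.249, adjusted p = 0.0586, edgeR). In the same lines, the stem cell markers summed to 733 and 1937 CPM against 3369 and 4934 CPM in WT, and 6 Paneth markers to 857 and 1783 CPM against 4786 and 5990 CPM, while 6 goblet markers summed to 2931 and 4066 CPM against 1627 and 1718 CPM. Their part in these results was not tested.

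**Figure D2:**
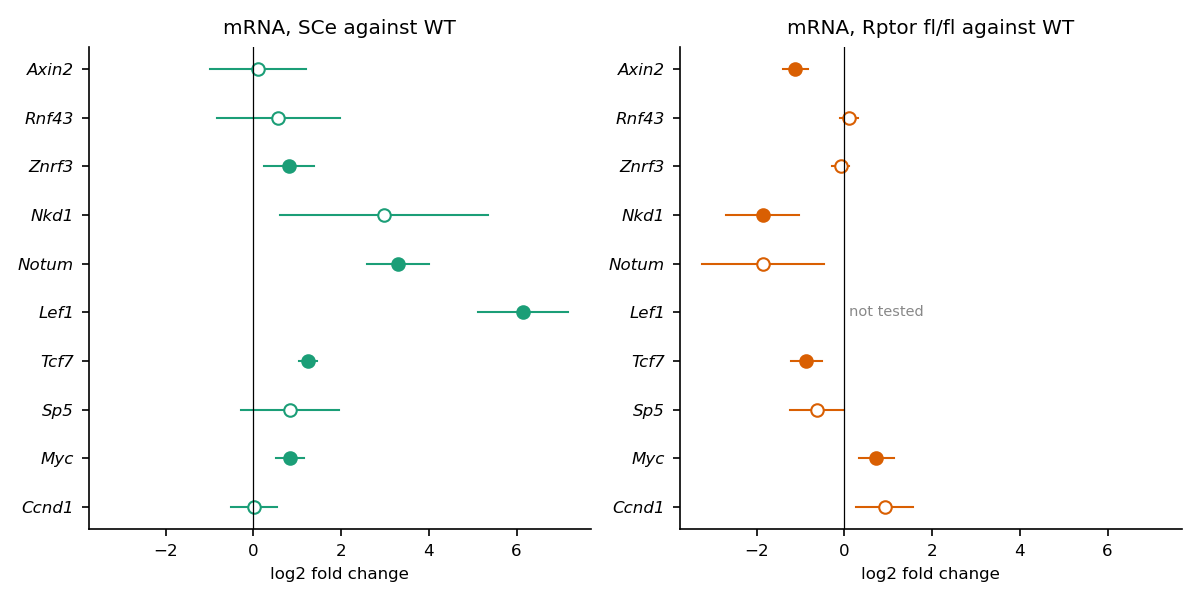
Log2 fold change of mRNA in SCe (left) and Rptor fl/fl (right) organoids against WT, with 95% intervals from edgeR. Filled symbols have an adjusted p under 0.05, and Lef1 passed the count filter through its SCe libraries. All 10 estimates are above 0 in SCe, that of Ccnd1 (0.01) falling below 0 without the count filter or with all RNA-seq groups in 1 fit and those of Axin2, Rnf43 and Ccnd1 without the first SCe library, while in Rptor fl/fl Axin2, Nkd1 and Tcf7 are below 0, Myc is above 0, and Rnf43 and Znrf3 are close to 0.

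Rptor fl/fl was also set against SCe organoids, since these 2 groups were the ones profiled by Ribo-seq. Here genotype and medium differ together and cannot be told apart, and the mRNA values of both groups are those given above. Of the 10 genes, 5 were called lower in Rptor fl/fl (Lef1, Notum, Nkd1, Tcf7 and Znrf3) and 1 higher (Ccnd1). Among 15103 genes, 21.8% were called lower and 21.0% higher. Lef1 and Notum passed the count filter through their SCe libraries. Lef1 had 1 count in all in Rptor fl/fl lines and 1231 in SCe libraries, a ratio of 883 with an interval of 158 to 34890, and Notum had 6 against 301, a ratio of 36.0 with an interval of 16.3 to 98.8. Nkd1 was 28.2-fold lower (log2 fold change -4.82, SE 1.06, adjusted p = 0.0189, edgeR) and Tcf7 4.25-fold lower (log2 fold change -2.09, SE 0.125, adjusted p = 0.00107, edgeR). Znrf3 fell by 0.88 on the log2 scale (SE 0.225, adjusted p = 0.0295, edgeR) and Ccnd1 rose by 0.94 (SE 0.265, adjusted p = 0.0390, edgeR). Axin2 (log2 fold change -1.20, adjusted p = 0.0834) and Rnf43 (-0.44, adjusted p = 0.544, edgeR) did not pass. Without the first SCe library, 9 genes were called, with Axin2 and Sp5 now lower and Rnf43 now higher in Rptor fl/fl (log2 fold change 0.27, adjusted p = 0.0308, edgeR). Tcf7 was called whichever line or library was left out. Without either Rptor fl/fl line Nkd1 and Znrf3 were not called (adjusted p from 0.105 to 0.148), nor was Ccnd1 without the first Rptor fl/fl line or the second or the third SCe library (adjusted p from 0.105 to 0.206, edgeR).

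Ribosome footprints, the fragments of mRNA that ribosomes protect from RNase, were counted over coding sequences in the same 2 kinds of organoid. In libraries labelled Rptor fl/fl, footprints on 6 of the 10 genes were lower than in SCe organoids, namely on Rnf43, Znrf3, Nkd1, Notum, Lef1 and Sp5, and 0 were higher (7 and 0 at an unadjusted p under 0.05 in edgeR). DESeq2 called the same numbers. By comparison, 9.84% of the 10817 genes tested were called lower and 6.63% higher. Lef1 and Notum could pass the count filter only through their SCe libraries, so their calls are no independent support, which leaves 4 of the other 8 genes called lower. The number called lower of all 10 stayed between 4 and 7 when any library was left out. Znrf3 lost its call without the second or the third library labelled Rptor fl/fl (adjusted p = 0.0640 and 0.0701, edgeR), Notum lost it without the third such library (adjusted p = 0.0633, edgeR) and could not be tested without the third SCe library.

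Nkd1 footprints were at 58.4, 42.3 and 44.9 CPM in SCe libraries and at 2.51, 4.34 and 2.22 CPM in libraries labelled Rptor fl/fl (log2 fold change -4.05, SE 0.305, adjusted p = 0.000308, edgeR). Sp5 footprints were at 32.6, 27.9 and 37.5 CPM against 7.37, 5.95 and 6.30 CPM (log2 fold change -2.37, SE 0.224, adjusted p = 0.000727, edgeR). Neither gene's groups overlapped. The ligases had lower footprints as well, and in mRNA of the same kinds of organoid Znrf3 was also called lower and Rnf43 was not. Rnf43 was at 48.4, 32.1 and 48.3 CPM in SCe and at 15.1, 13.2 and 14.0 CPM in the libraries labelled Rptor fl/fl (log2 fold change -1.67, SE 0.222, adjusted p = 0.00257, edgeR). Znrf3 was at 13.2, 11.0 and 18.9 CPM against 6.20, 4.18 and 4.94 CPM (log2 fold change -1.57, SE 0.323, adjusted p = 0.0129, edgeR).

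Lef1 and Notum footprints were few. Lef1 had 13, 7 and 60 counts in SCe libraries and 4, 1 and 0 in those labelled Rptor fl/fl, a ratio of 43.7 with a 95% interval of 18.0 to 138. Notum had 6, 4 and 28 counts against 0, 3 and 1, a ratio of 25.9 with an interval of 9.34 to 100.1. In every library labelled Rptor fl/fl both genes were thus within 4 counts of 0.

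Axin2 footprints were at 121, 204 and 231 CPM in SCe and at 130, 120.2 and 131 CPM in libraries labelled Rptor fl/fl. The first SCe library fell within the range of the other group, and the test was not passed (log2 fold change -0.58, SE 0.231, adjusted p = 0.121, edgeR). Without that library Axin2 was called lower (log2 fold change -0.81, adjusted p = 0.00264, edgeR). Tcf7 had 6.32, 11.0 and 10.1 CPM in SCe against 5.70, 4.98 and 6.92 CPM (log2 fold change -0.67, adjusted p = 0.214, edgeR). Myc (186 to 232 CPM in SCe, 229 to 269 CPM in libraries labelled Rptor fl/fl) and Ccnd1 (110 to 137 CPM against 131 to 147 CPM) overlapped between the groups, with adjusted p of 0.303 and 0.608 (edgeR). The stem cell markers summed to 4908 to 5272 CPM in the libraries labelled Rptor fl/fl and to 1384 to 2804 CPM in SCe libraries, but 1 of the 4 was called higher and 2 lower, with a median log2 fold change of -0.45, and Lgr5 was at 208 to 215 CPM against 367 to 637 CPM. Markers of differentiated cells were higher in the libraries labelled Rptor fl/fl. Enterocyte markers summed to 8283 to 8831 CPM against 949 to 3545 CPM in SCe (4 of 7 called higher), goblet markers to 3060 to 5010 CPM against 1146 to 1486 CPM (6 of 6), and enteroendocrine markers to 524 to 635 CPM against 34.2 to 64.7 CPM (3 of 5 tested). Their part in the footprint differences was not tested.

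**Figure D3:**
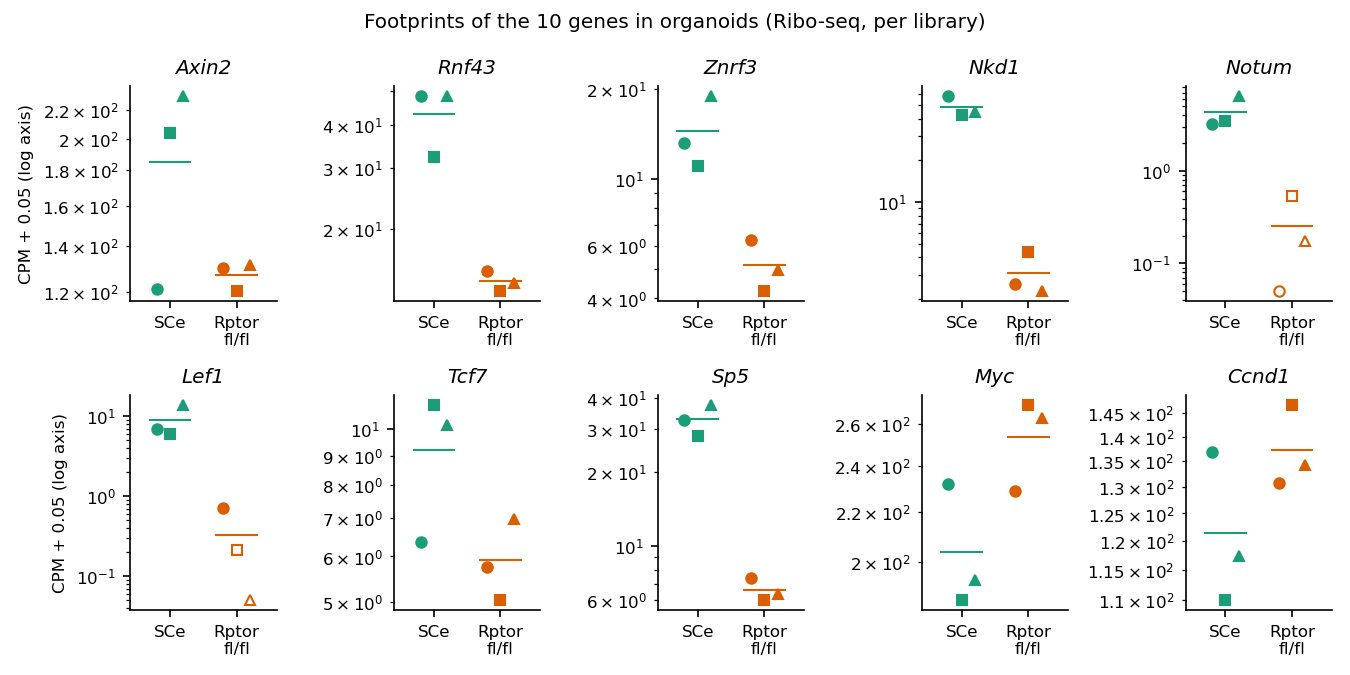
Footprint level of each gene in Ribo-seq of organoids, as CPM plus 0.05 on a log axis whose range differs between panels. Symbols are libraries (circle, square and triangle for replicates 1, 2 and 3), bars are group means and open symbols hold at most 3 counts. Rnf43, Znrf3, Nkd1, Notum, Lef1 and Sp5 separate fully, while Tcf7, Axin2, Myc and Ccnd1 overlap.

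Translation efficiency, the footprint change compared with the mRNA change in 1 model over both assays, differed for Tcf7 alone among the 10 genes, which was called higher in Rptor fl/fl against SCe. At an unadjusted p under 0.05, Ccnd1 was lower (edgeR). Nothing is read from Lef1 and Notum here, which had at most 3 mRNA counts in each Rptor fl/fl line. Of 10747 genes, 1.12% were called higher and 1.81% lower. Tcf7 mRNA fell by 2.09 on the log2 scale and its footprints by 0.67, an interaction of 1.48 (SE 0.321, adjusted p = 0.0399, edgeR). The Tcf7 footprints behind it were 12, 13 and 44 counts in SCe and 34, 31 and 56 in the other group, and the call was lost in 7 of the 11 fits that left out a library, always with the same sign (adjusted p from 0.0640 to 0.183, edgeR). For Rnf43 the mRNA change was -0.44 and the footprint change -1.67, an interaction of -1.19 (SE 0.553, adjusted p = 0.260, edgeR). Without the first SCe RNA-seq library, Rnf43 (-1.89, adjusted p = 0.00387) and Sp5 (-1.39, adjusted p = 0.0445, edgeR) were called lower and Tcf7 remained called. Rptor itself, which is not among the 10, had an interaction of 1.43 (SE 0.390, adjusted p = 0.0777, edgeR), close to that of Tcf7. Its log2 fold change was -1.89 in mRNA and -0.53 in footprints, the latter with 28, 49 and 91 counts in SCe libraries. Whether the deletion itself differed between the Ribo-seq and the RNA-seq was not tested. The RNA-seq lines labelled Rptor fl/fl lack RPL22.HA in their genotype and are not the lines of the Ribo-seq, so genotype differences between them enter these values.

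Transcripts were compared as shares of a gene's RNA-seq reads, which rest on the authors' Salmon assignment and were not tested. Rnf43 was the gene whose shares differed most plainly. The annotation gives Rnf43-209 a coding sequence of 784 codons and a start at position 87663087 of chromosome 11, and Rnf43-201 one of 657 codons with a start downstream at 87699897. The share of Rnf43-201 was 8.54% and 17.9% in WT lines and 13.1% and 18.9% in Rptor fl/fl lines, but 28.7%, 40.9% and 35.8% in SCe libraries. SCe did not overlap with either other group, the first SCe library included. Since the coding sequences overlap, Ribo-seq does not separate these transcripts, and Salmon put all organoid Rnf43 footprints on Rnf43-209. For Nkd1, the share of Nkd1-202 was 22.0% and 20.7% in WT, 3.43% and 11.0% in Rptor fl/fl, from 49 and 98 reads, and 22.9% to 25.6% in SCe. Znrf3 was split between Znrf3-201 (913 codons) and Znrf3-203 (809 codons) in like shares everywhere, with Znrf3-201 at 52.5% to 57.7% of reads. Axin2-201 (840 codons) held 81.9% to 87.1% of Axin2 reads and Tcf7-201 69.9% to 79.7% of Tcf7 reads. In SCe, 57.7% to 75.0% of Lef1 reads went to Lef1-201 (397 codons). WT and Rptor fl/fl lines had too few Lef1 reads for shares.

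**Figure D4:**
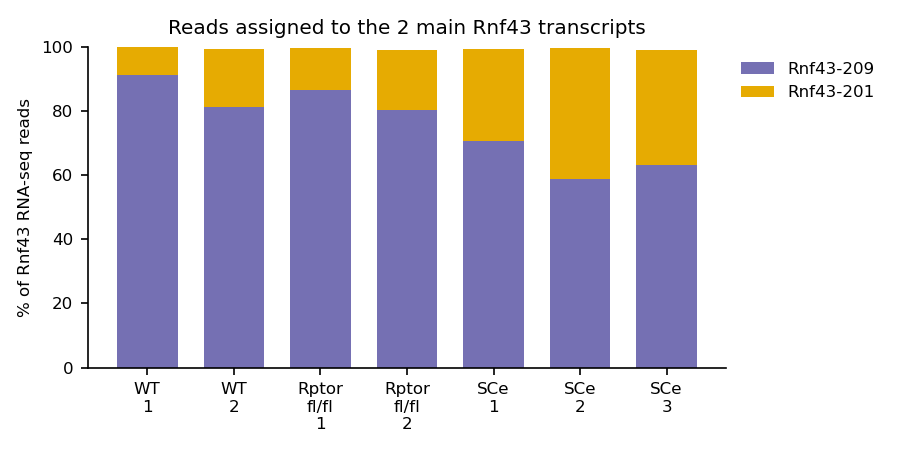
Share of Rnf43 RNA-seq reads, in percent, that the authors' Salmon run gave to Rnf43-209 and Rnf43-201 in each organoid line or library. Rnf43-201 takes 28.7% to 40.9% in the 3 SCe libraries and 8.54% to 18.9% in the 4 other lines.

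In mice, footprints were read 24 h after tamoxifen from ribosomes tagged through Lgr5Cre.ERT2. They were counted mostly on 5′ regions plus coding sequences, so the mouse values are not those of coding sequences alone. Lgr5 itself was at 11.1, 7.68 and 8.80 CPM in WT and 45.7, 8.52 and 6.37 CPM in Rptor fl/fl mice, while 7 enterocyte markers summed to 45406 to 46736 CPM in WT and 51402 to 56397 CPM in Rptor fl/fl, 6 goblet markers to 24902 to 25584 CPM and 29816 to 33460 CPM, 6 stromal markers to 891 to 921 CPM and 1125 to 1342 CPM, and 6 smooth muscle markers to 1264 to 1487 CPM over both groups. Genes of cells other than crypt stem cells thus supplied many footprints. Paneth markers went the other way, at 8938.5 to 10071 CPM in WT and 5128 to 8624 CPM in Rptor fl/fl (3 of 5 tested called lower, 0 higher). The 4 stem cell markers summed to 484 to 539 CPM and 322 to 488 CPM (2 called lower, 0 higher). In both sets the first Rptor fl/fl mouse was the highest of its group. The part of all these markers in the values below was not tested. Myc was the gene called among the 7 that could be tested, and it was lower. Of 11515 genes, 5.97% were called lower and 7.47% higher.

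Myc footprints were at 38.1, 39.3 and 47.7 CPM in WT mice and at 31.2, 28.0 and 33.5 CPM in Rptor fl/fl mice. The groups did not overlap, with a log2 fold change of -0.48 (SE 0.133, adjusted p = 0.0263, edgeR), but the call was lost with DESeq2 (adjusted p = 0.114), without the third WT library (adjusted p = 0.257, edgeR) or without the second Rptor fl/fl library (adjusted p = 0.125, edgeR). Axin2 was at 52.9, 36.2 and 42.9 CPM in WT and at 41.7, 22.8 and 29.3 CPM in Rptor fl/fl, with overlap between the highest Rptor fl/fl and the lowest WT library (log2 fold change -0.47, SE 0.191, adjusted p = 0.126, edgeR). Rnf43 was at 9.84 to 16.3 CPM against 8.52 to 11.0 CPM (log2 fold change -0.50, adjusted p = 0.127, edgeR). Znrf3 was at 4.58 to 6.78 CPM against 2.93 to 3.65 CPM, without overlap but with at most 25 counts per library (log2 fold change -0.69, adjusted p = 0.189, edgeR).

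The first Rptor fl/fl mouse, the library with the most Lgr5 footprints, was also the highest of the 6 for several genes of the list. Nkd1 was at 10.5 CPM in it and at 4.56 and 4.21 CPM in the other Rptor fl/fl mice, against 3.69, 3.62 and 5.50 CPM in WT. Sp5 was at 12.2 CPM in it and at 4.26 and 5.48 CPM in the others, against 3.69, 5.42 and 4.77 CPM in WT. Neither gene passed the test (adjusted p = 0.651 and 0.448, edgeR), and without this mouse Axin2 was called lower (log2 fold change -0.66, SE 0.152, adjusted p = 0.00607, edgeR). Ccnd1 was at 59.0 to 81.6 CPM in WT and 60.8 to 86.8 CPM in Rptor fl/fl (log2 fold change -0.05, adjusted p = 0.851, edgeR). Tcf7 had 2, 4 and 16 counts in WT and 12, 8 and 15 in Rptor fl/fl, a ratio of 0.952 with an interval of 0.543 to 1.70. Lef1 had 0, 1 and 1 counts against 0, 3 and 5, and Notum 0, 0 and 1 against 4, 1 and 3. At this depth no difference in Lef1 was detectable (ratio 2.39, interval 0.478 to 23.1), nor in Notum (ratio 4.79, interval 0.642 to 212).

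**Figure D5:**
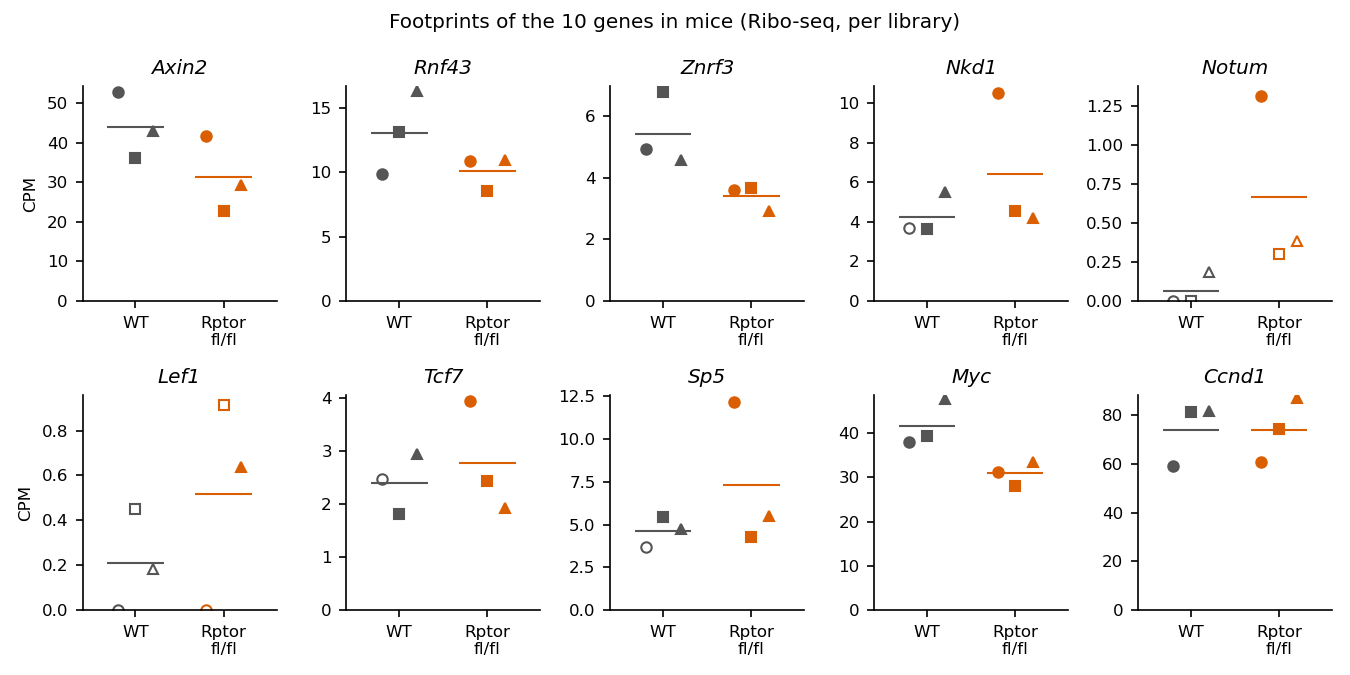
Footprint level of each gene in Ribo-seq of mice, in CPM on linear axes from 0. Symbols are libraries (circle, square and triangle for replicates 1, 2 and 3), bars are group means and open symbols hold at most 3 counts. Myc and Znrf3 separate, and the first Rptor fl/fl mouse is highest for Nkd1, Sp5 and Notum.

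Other genes of the pathway were read from 7 lists, with the same test and share of all genes called as above. In SCe against WT organoids, 4 of the 9 extracellular antagonists tested were higher and 0 lower (4 and 0 at an unadjusted p under 0.05 in edgeR), with a median log2 fold change of 1.99. Apcdd1, a membrane-bound WNT inhibitor, was at 1.66 and 0.966 CPM in WT and 11.6, 8.31 and 12.4 CPM in SCe (log2 fold change 3.05, SE 0.346, adjusted p = 0.00362, edgeR). Of 12 WNT ligands tested, 5 were higher and 1 lower; Wnt6 went from 0.0943 and 0.0604 CPM to 13.5, 2.84 and 5.24 CPM. Of 13 receptors, 4 were higher and 1 lower, and of 10 crypt targets 3 were higher and 1 lower. Cd44, a surface receptor of crypt cells, went from 127 and 143 CPM to 277, 333 and 299 CPM, and Ascl2, a stem cell transcription factor, fell by 1.81 on the log2 scale. Of 11 genes of the destruction complex and its upstream partners, 1 was higher and 4 lower, with Gsk3a at a log2 fold change of -0.44 (adjusted p = 0.00559, edgeR). Of 9 nuclear partners 1 was higher and 2 lower, and of 4 genes of the R-spondin axis 1 was higher. Wif1, Wnt6, Nkd2 and Rspo4, all called higher, had at most 13 counts in each WT line. They passed the count filter through the SCe libraries, so the numbers called in their lists are no independent support.

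In Rptor fl/fl against WT organoids, 4 of 9 WNT ligands were higher and 2 lower. Wnt4 went from 3.07 and 2.17 CPM to 13.0 and 11.1 CPM and Wnt7a from 0.226 and 0.262 CPM to 7.94 and 4.96 CPM. Neither gene had a footprint in any organoid Ribo-seq library, whether SCe or labelled Rptor fl/fl. Wnt3, the ligand that Paneth cells supply to stem cells, went from 9.70 and 10.1 CPM to 1.23 and 3.10 CPM (log2 fold change -2.19, SE 0.440, adjusted p = 0.0317, edgeR). Of 14 receptors 4 were higher and 3 lower, with Fzd1 at a log2 fold change of 1.92 and Fzd4 at -2.09. Crypt targets were called lower in 4 of 9 cases and higher in 1, with log2 fold changes of -1.80 for Lgr5, -2.20 for Tnfrsf19 and 0.53 for Cd44. Of 11 genes of the destruction complex and its partners only Dvl1 was called, at 0.35. Of 9 nuclear partners 1 (Bcl9), of 5 extracellular antagonists 1 (Sfrp5) and of 3 R-spondin axis genes 1 (Lgr5) were lower. In these 3 lists 0 were higher, also at an unadjusted p under 0.05 (edgeR). Sfrp5 had 0 and 2 counts in Rptor fl/fl lines and passed the count filter through the WT lines.

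In Ribo-seq of libraries labelled Rptor fl/fl against SCe, 4 of 9 crypt targets, 2 of 9 receptors, both R-spondin axis genes tested (Lgr5 and Lgr4), 1 of 2 ligands (Wnt6) and 1 of 8 nuclear partners (Tle2) were lower. Apc, a component of the destruction complex, was the 1 gene of its 11 called higher (log2 fold change 0.96, SE 0.248, adjusted p = 0.0320, edgeR). The 1 extracellular antagonist tested was not called. Wnt6 had 0, 0 and 1 counts in libraries labelled Rptor fl/fl and passed the count filter through the SCe libraries. Footprints of Prox1, a homeobox transcription factor, were at 63.7, 40.6 and 173 CPM in SCe and at 4.86, 1.77 and 1.85 CPM in the other group. In translation efficiency, Lgr4 was the gene called in these lists (log2 fold change -0.85, adjusted p = 0.0451, edgeR). In mRNA against SCe, 5 of 9 extracellular antagonists were lower, and of 12 ligands 6 were lower and 3 higher. Dkk2, Wnt11 and Wnt10b, called lower, had 0 and 1 counts in Rptor fl/fl lines and passed the count filter through the SCe libraries. Wnt7a, called higher, had 5, 2 and 3 counts in SCe libraries and passed it through the Rptor fl/fl lines. The numbers called in these 2 lists are thus no independent support. Crypt targets were lower in 5 of 10 and higher in 1, receptors 3 and 3 of 14, destruction complex genes higher in 3 of 11, nuclear partners higher in 3 and lower in 1 of 9, and R-spondin axis genes lower in 2 of 4.

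In mice, Ctnnb1, which encodes β-catenin, was higher in Rptor fl/fl, at 1251, 1376 and 1411 CPM against 930, 1011 and 1051 CPM in WT (log2 fold change 0.41, SE 0.0706, adjusted p = 0.00107, edgeR). Cd44 was at 59.8, 54.8 and 45.5 CPM against 22.1, 29.4 and 31.2 CPM (log2 fold change 0.84, SE 0.147, adjusted p = 0.00126, edgeR). Ascl2 was at 4.60, 2.13 and 1.66 CPM against 9.84, 9.04 and 6.97 CPM (log2 fold change -1.69, SE 0.380, adjusted p = 0.00765, edgeR). Dvl1 (log2 fold change -0.53) and Tle1 (-0.44) were lower. Of the 2 ligands, 11 receptors, 2 R-spondin axis genes and 3 extracellular antagonists tested, 0 were called, and 1 ligand was higher at an unadjusted p under 0.05 (edgeR).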

How the data were processed

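The 10 genes and the pathway and marker lists were chosen with earlier results of these data known, so no count over them is independent support. Per the labels and the study's methods, the authors trimmed Ribo-seq adapters with cutadapt (version 1.18), removed ribosomal RNA and ran Salmon (version 1.1.0) on protein-coding sequences of GENCODE vM21 (mm10). They deposited an estimated count, a TPM and an effective length (used as an offset in 1 alternative) for each sequence. Organoid Ribo-seq was counted on coding sequences, with separate 5′ entries that were left out, and mouse Ribo-seq mostly on 5′ regions plus coding sequences. The study's methods instead describe untranslated regions as trimmed for Ribo-seq and do not set the mice apart. A deposited RiboDiff table holds the authors' own ratios, fold changes and p-values and was not used.

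Estimated counts were summed per gene and over technical libraries, rounded, filtered with filterByExpr, scaled by TMM and tested with edgeR 4.0.16 (quasi-likelihood, R 4.3.3) on the groups of each of 6 comparisons, at a Benjamini-Hochberg adjusted p of 0.05 over all genes. SE is the absolute log2 fold change divided by the square root of F. TPM was used only to compare levels between genes. Of other pathway genes, those named have the smallest adjusted p in their list, at most 2 per direction, chosen from those called. Lgr5 is also given as a marker. Scripts were tested on simulated data. The alternatives were DESeq2 1.42.0, RLE size factors, no count filter, the length offset, a replicate block, each library left out, technical libraries kept separate, and all RNA-seq groups in 1 fit. Same-numbered samples are not stated to be paired.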

Additional observations from a re-analysis of the deposited data

Results flagged for a closer look

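Translation efficiency of Tcf7 in Rptor fl/fl against SCe organoids had an interaction of 1.48 on the log2 scale, because its mRNA fell by 2.09 and its footprints by 0.67. Rptor itself had an interaction of 1.43, which was not called. Between Rptor fl/fl and WT, Myc had opposite directions in organoids and mice. Every Rptor fl/fl organoid line was above every WT line in mRNA (log2 fold change 0.73). Every Rptor fl/fl mouse was below every WT mouse in footprints (log2 fold change -0.48). Both calls on Myc were lost in some fits that left out a line or library. Notum mRNA was below WT in both Rptor fl/fl organoid lines (log2 fold change -1.85). Its footprints, at 4, 1 and 3 counts in Rptor fl/fl mice and 0, 0 and 1 in WT mice, were not tested. For Myc and Notum the difference between organoids and mice was not tested, and the assay, the Cre driver and the time after tamoxifen differ as well. In the organoid RNA-seq the RPL22.HA allele also changed together with the Rptor genotype. The mouse footprints also include 5′ regions, where Myc held many reads in organoid Ribo-seq. Groups of 2 or 3 samples are too small for a test of outlying samples.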

How the results depend on the processing

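The number of the 10 genes called ranged from 3 to 8 (5 reported) in SCe against WT organoids when each library or line was left out, from 1 to 6 (4) in Rptor fl/fl against WT, from 3 to 9 (6) in mRNA against SCe, from 4 to 7 (6) in organoid Ribo-seq, from 0 to 2 (1) in mice and from 0 to 3 (1) in translation efficiency. In mice DESeq2 called 0 genes (2 at an unadjusted p under 0.05) and edgeR with the replicate block 2. In translation efficiency edgeR called 0 without the count filter and 0 with the replicate block (4 at an unadjusted p under 0.05 in each), and DESeq2 called 1. The numbers of calls stayed within 1.5 times those reported under all other settings that left no library out. The replicate block also brought Ccnd1 past the threshold in Rptor fl/fl against WT organoids (adjusted p = 0.00381) and Axin2 in mice (adjusted p = 0.0206), and took Tcf7 out in translation efficiency (adjusted p = 0.244, edgeR). It changed no other call. Samples share only a number, and the correlation of same-numbered deviations from group means was 0.18 between WT and Rptor fl/fl lines and 0.106 to 0.202 between these lines and SCe libraries, with 2 shared numbers in each of these RNA-seq comparisons, and between -0.03 and 0.06 in Ribo-seq.

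When each library or line was left out, some log2 fold changes turned their sign. Without the first SCe RNA-seq library they were lowest or turned for Axin2 (-0.43, to a highest 0.328), Rnf43 (-0.14, to 0.838) and Ccnd1 (-0.19, to 0.152) in SCe against WT, for Rnf43 in Rptor fl/fl against SCe (0.27, lowest -0.717) and for Nkd1 in translation efficiency (-0.40, to 1.30). Ccnd1 in SCe against WT also turned without the count filter (-0.0087), in the fit of all RNA-seq groups (-0.0106) and without the second WT line (-0.15). Myc in Rptor fl/fl against SCe ran from -0.272 to 0.0812, the latter without the second Rptor fl/fl line. Notum translation efficiency ran from -0.86, without the second Ribo-seq library labelled Rptor fl/fl, to 1.09. In mice Nkd1 ran from -0.13, without the first Rptor fl/fl library, to 0.701, and Ccnd1 from -0.195 to 0.0577, without that same library, and was at 0.0091 without the third WT library. Of the turned values, those of Axin2 and Rnf43 were called and the others were not. The cause was not tested. Over single genes and alternatives, 621 values kept direction and side of the threshold, 35 lost a call, 24 gained one and 13 turned. With all RNA-seq groups in 1 fit, Axin2 and Nkd1 lost their calls in Rptor fl/fl against WT (adjusted p = 0.161 and 0.248, edgeR).

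Over all genes, the calls reported and their range over settings that left no library out were 6309 (3154 to 8489) in SCe against WT, 3195 (1544 to 7208) in Rptor fl/fl against WT, 6452 (3413 to 8513) in mRNA against SCe, 1781 (1228 to 2244) in organoid Ribo-seq, 1547 (1048 to 1764) in mice and 315 (4 to 1312) in translation efficiency. Leaving out a library or line gave 2027 to 9530, 939 to 2126, 2509 to 9101, 669 to 2682, 897 to 1954 and 25 to 951. Depth limits Lef1 and Notum, and Tcf7 in mice.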

Other observations

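By Pearson correlation of log2 CPM across the 7 RNA-seq lines and libraries, the 5 genes most like Axin2 among 15158 were Pigu (0.995), Pnliprp1 (0.993), Qsox1 (0.989), C9orf72 (0.989) and Cers6 (0.986). Within the list, Sp5 (0.88) and Nkd1 (0.82) came closest, Ccnd1 (-0.51) ran the other way and Myc (-0.17) showed little relation. The first SCe library is the highest for Axin2 and for all 5 of these genes, so the values lean on it, and they are a description of 7 points without a test.

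The 5′ entries of organoid Ribo-seq, left out above, held many reads for Myc and Axin2. Myc had 243, 98 and 143 reads there in SCe libraries and 295, 369 and 455 in libraries labelled Rptor fl/fl (128, 82.9 and 32.9 CPM against 49.4, 59.3 and 56.2 CPM). Axin2 had 45, 85 and 128 reads against 149, 165 and 168 (23.7, 71.9 and 29.5 CPM against 25.0, 26.5 and 20.8 CPM). Both overlapped between the groups. Nkd1, Lef1 and Sp5, whose coding footprints were higher in SCe libraries, were also higher in their 5′ entries, without overlap, at 5.81 to 10.5, 2.11 to 5.07 and 3.91 to 5.92 CPM against 0.371 to 1.29, 0 to 0.482 and 0.643 to 1.68 CPM. The other 3 genes with higher coding footprints in SCe did not follow: Rnf43 (3.38 to 11.6 against 4.66 to 7.04 CPM) and Znrf3 (0 to 2.54 against 0 to 0.803 CPM) overlapped, and Notum had no reads in its 5′ entries.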
